A study of Mus musculus with 8 samples.

Results

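The PARP genes described here encode 10 ADP-ribosyltransferases (Parp1, Parp2, Parp3, Parp4, Parp6, Parp8, Parp9, Parp10, Parp12 and Parp14), chosen by symbol from the 25655 gene rows of a count table of mouse gastrocnemius, the large muscle of the calf. RNA came from 3 samples of male wild-type mice given cecal slurry, gut contents in suspension that cause a polymicrobial sepsis, and from 5 control samples of male wild-type mice given 10% glycerol. All 8 samples were taken at day 4, and the age of the mice is not given in the labels. Whether each library is a separate animal is not stated, so p-values reflect the spread among these 8 samples, which may be technical.

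PARP enzymes split NAD and transfer its ADP-ribose to proteins, as long chains (poly-ADP-ribosylation) or as single units (mono-ADP-ribosylation). Parp1 and Parp2 build chains at DNA breaks, which recruit repair proteins, and Parp1 is a large consumer of nuclear NAD when DNA is damaged. Most of the other members transfer single units, and several members, among them Parp9, Parp12 and Parp14, are known as interferon-induced genes with roles in antiviral and inflammatory signalling.

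Each library read the 3′ ends of transcripts, so a count stands for captured transcript ends and was not divided by length. Libraries held 3337851 to 3765726 reads in sepsis and 3086277 to 4016329 reads in control, and 1 read was worth 0.210 to 0.266 CPM in septic libraries and 0.278 to 0.362 CPM in controls. CPM are counts per 1e+06 reads, with library sizes scaled by edgeR's TMM method. The spread was wider among septic libraries, with a chi-square per degree of freedom of 11.0 to 26.3 between septic libraries and 2.04 to 6.86 between controls. Pairs with control 1 were at 4.95 to 6.86 and other control pairs at 2.04 to 3.33. Mitochondrially encoded genes took 12.6% to 16.9% of reads in sepsis and 21.7% to 26.7% in control, and their part in the PARP values was not tested. Summed muscle fibre markers were at 81759 to 114986 CPM in sepsis and 192365 to 227014 CPM in control, which fits the labelled tissue. Of these markers 12 of 12 were called lower in sepsis by the test described below, beside 25.2% of all genes tested.

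Of the 10 PARP genes 8 had enough reads to be tested. Parp4 and Parp14 were higher in septic muscle, Parp1, Parp3 and Parp8 were lower, and Parp2, Parp6 and Parp9 did not pass the test. Parp10 and Parp12 had too few reads. Calls are those of edgeR's quasi-likelihood test at a Benjamini-Hochberg adjusted p under 0.05, fitted on all 9810 genes with enough reads. That test called 50.4% of all genes tested, 25.2% higher and 25.2% lower, so 2 of 8 PARP genes higher and 3 of 8 lower is near the background and is not a result about the family. Of the 3 lower, Parp8 passed the expression filter only through control libraries. The values of single genes follow by role.

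**Figure D1:**
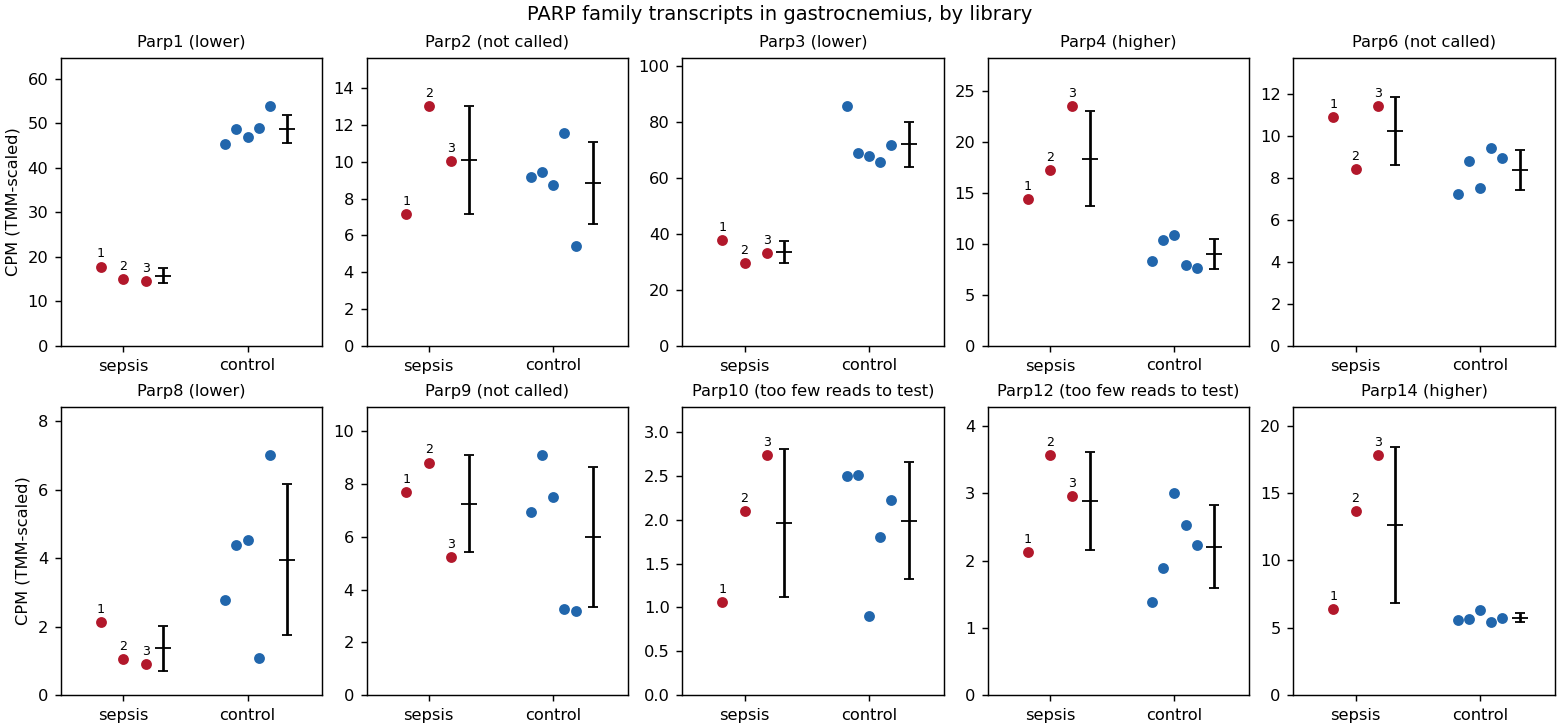
TMM-scaled CPM of the 10 PARP genes in each library, sepsis (red, numbered by replicate) left of control (blue), with mean and SD as black bars; each panel has its own axis from 0. Parp1 and Parp3 lie below all controls in all 3 septic libraries, Parp4 lies above, and Parp14 in sepsis 1 is just above the highest control.

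Parp1 encodes the main poly(ADP-ribose) polymerase of the nucleus, which binds DNA breaks. It lies on chromosome 1 (ENSMUSG00000026496). It had 17.8, 14.9 and 14.6 CPM in sepsis 1 to 3, from 67, 71 and 64 reads, against 45.2, 48.7, 47.0, 48.8 and 53.8 CPM in control 1 to 5. Every septic library was below every control, and the septic values lay within a narrow range. The means were 15.8 ± 1.77 CPM in sepsis (SD, n = 3) and 48.7 ± 3.22 CPM in control (n = 5). Parp1 fell 3.09-fold. On the log2 scale the change was -1.63 (SE 0.14), at an edgeR adjusted p of 1.22e-06. In bulk muscle RNA, fewer cells of a type and less RNA per cell cannot be told apart.

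Parp3, on chromosome 9 (ENSMUSG00000023249), encodes a relative of Parp1 that acts at DNA double-strand breaks. It was the most abundant of the 10 genes per captured transcript end in every library. It had 37.8, 29.6 and 33.3 CPM in sepsis 1 to 3, against 85.8, 69.1, 68.1, 65.8 and 71.7 CPM in control 1 to 5. The groups did not overlap. Parp3 fell 2.15-fold, with a log2 fold change of -1.11 (SE 0.14), at an edgeR adjusted p of 2.45e-05.

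Parp2, on chromosome 14, encodes the other chain-building enzyme of DNA breaks. It had 7.18, 13.0 and 10.0 CPM in sepsis 1 to 3, against 9.16, 9.42, 8.73, 11.6 and 5.42 CPM in control 1 to 5, and the groups overlapped. Its log2 fold change was 0.20 (SE 0.26), at an edgeR adjusted p of 0.540. The ratio of summed reads, corrected for library size, was 1.17, with a 95% counting interval of 0.917 to 1.49. Counting intervals cover counting error only.

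The promoters of Parp1 and Parp3, the pair that fell with no overlap between the groups, are shown beside that of Parp4, which rose and holds a match to an interferon motif. The sequences are RefSeq's, on build GRCm38.p6, from 250 bases before to 50 bases after the gene start. Capitals mark matches, on both strands, to the interferon-stimulated response element core (GAAA, any 2 bases, GAAA) and to the GC box (GGGCGG), and a gamma-activated site (TTCNNNGAA) was searched as well.
Parp1 promoter (chr1:180568641-180568940, plus strand): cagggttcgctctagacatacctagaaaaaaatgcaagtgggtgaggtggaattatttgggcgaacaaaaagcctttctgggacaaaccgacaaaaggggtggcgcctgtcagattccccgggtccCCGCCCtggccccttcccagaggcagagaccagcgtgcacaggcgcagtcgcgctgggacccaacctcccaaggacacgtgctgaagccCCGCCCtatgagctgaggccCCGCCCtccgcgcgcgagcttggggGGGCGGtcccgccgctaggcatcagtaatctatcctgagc
Parp3 promoter (chr9:106476900-106477199, minus strand): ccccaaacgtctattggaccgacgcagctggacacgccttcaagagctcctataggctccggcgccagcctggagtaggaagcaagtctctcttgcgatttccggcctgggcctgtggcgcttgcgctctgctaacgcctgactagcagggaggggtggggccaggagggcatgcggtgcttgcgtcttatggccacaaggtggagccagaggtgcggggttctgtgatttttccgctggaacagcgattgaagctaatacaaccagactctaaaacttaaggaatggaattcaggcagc
Parp4 promoter (chr14:56575369-56575668, plus strand): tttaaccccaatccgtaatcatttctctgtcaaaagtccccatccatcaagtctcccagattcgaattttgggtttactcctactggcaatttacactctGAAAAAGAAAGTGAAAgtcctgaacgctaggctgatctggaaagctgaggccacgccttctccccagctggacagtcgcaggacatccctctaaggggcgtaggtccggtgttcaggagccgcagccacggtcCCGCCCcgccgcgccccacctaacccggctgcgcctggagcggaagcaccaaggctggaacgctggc

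Parp1 held 4 GC boxes, Parp3 held 0 and Parp4 held 1. GC boxes were found in 35.7% of 32851 promoters of this length. Parp4 held 2 overlapping matches to the interferon motif, GAAAAAGAAA starting 150 bases and GAAAGTGAAA starting 144 bases before the gene start. That motif was found in 3.44% of the same promoters and the gamma-activated site in 8.30%. Promoters of 7 of the 10 genes were matched in the table. The other 6 (Parp1, Parp2, Parp3, Parp6, Parp8 and Parp12) held no match to the interferon motif, and none of the 7 held the gamma-activated site. Entries for Parp9, Parp10 and Parp14 were missing. A match is a description of the letters and not a binding site.

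Parp4, on chromosome 14 (ENSMUSG00000054509), encodes the ADP-ribosyltransferase of vaults, large ribonucleoprotein particles of the cytoplasm. It had 14.4, 17.2 and 23.5 CPM in sepsis 1 to 3, from 54, 82 and 103 reads. Controls 1 to 5 had 8.33, 10.4, 10.8, 7.96 and 7.65 CPM. All 3 septic libraries exceeded the highest control. Parp4 rose 2.03-fold, with a log2 fold change of 1.02 (SE 0.21), at an edgeR adjusted p of 0.00123. Among the PARP genes tested, the groups did not overlap in 4, with Parp4 and Parp14 above and Parp1 and Parp3 below. Over all genes tested the groups did not overlap in 47.5%, with sepsis above in 23.1% and below in 24.3%.

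Parp14, on chromosome 16 (ENSMUSG00000034422), encodes a mono-ADP-ribosyltransferase with macrodomains, folds that bind ADP-ribose, and is known as a cofactor of STAT6 signalling. It had 6.38, 13.7 and 17.8 CPM in sepsis 1 to 3, from 24, 65 and 78 reads. Controls 1 to 5 had 5.55, 5.65, 6.32, 5.42 and 5.74 CPM, from 15 to 21 reads. Sepsis 1 was just above the highest control, while sepsis 2 and 3 were well above all controls. The means were 12.6 ± 5.78 CPM in sepsis (SD, n = 3) and 5.74 ± 0.348 CPM in control (n = 5), so the septic spread was far wider. Parp14 rose 2.21-fold, with a log2 fold change of 1.14 (SE 0.28), at an edgeR adjusted p of 0.0046. The log2 fold change was 1.44 without sepsis 1 and 0.82 without sepsis 3, and the call held in both cases.

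Parp9, also on chromosome 16, encodes a macrodomain protein that pairs with the ubiquitin ligase Dtx3l. It had 7.71, 8.82 and 5.25 CPM in sepsis 1 to 3, against 6.94, 9.10, 7.53, 3.25 and 3.19 CPM in control 1 to 5. The groups overlapped, and controls 4 and 5 lay below all other libraries. Its log2 fold change was 0.26 (SE 0.34), at an edgeR adjusted p of 0.546. In the GENCODE M21 annotation, the 3′ end of Parp9 lies inside Gm15564, an antisense gene with no row in the table, and the strand setting of the counting is not given in the sources used here.

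Dtx3l starts head to head with Parp9 and partly overlaps it. It had 2.93, 10.7 and 7.99 CPM in sepsis 1 to 3, against 11.7, 8.79, 12.3, 11.2 and 9.24 CPM in control 1 to 5. Sepsis 1 was far below the other libraries. The log2 fold change of Dtx3l was -0.54 (SE 0.31), at an edgeR adjusted p of 0.174. Without sepsis 2 it passed the test, at -0.93 and an adjusted p of 0.0348, the lowest over its alternatives, which reached 0.820.

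Of the remaining members, Parp6, on chromosome 9, encodes a mono-ADP-ribosyltransferase known from rodent neurons. It had 10.9, 8.40 and 11.4 CPM in sepsis 1 to 3, against 7.22 to 9.40 CPM in controls with a median of 8.79. Its log2 fold change was 0.29 (SE 0.20), at an edgeR adjusted p of 0.251. Sepsis 1 and 3 were above all controls and sepsis 2 was within their range.

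Parp8, on chromosome 13, encodes a mono-ADP-ribosyltransferase. It had few reads, 8, 5 and 4 in sepsis 1 to 3 and 10, 14, 15, 3 and 22 in control 1 to 5. These were 2.13, 1.05 and 0.913 CPM in sepsis, against 2.78, 4.39, 4.52, 1.08 and 7.01 CPM in control. The groups overlapped through control 4. Parp8 passed the expression filter only through 3 control libraries, so a difference was built into its being tested. Its log2 fold change was -1.56 (SE 0.53), at an edgeR adjusted p of 0.0265. The call was lost without sepsis 2, at -1.40, and without sepsis 3, at -1.35, and the gene was no longer tested without control 2, 3 or 5.

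Parp10 and Parp12, on chromosomes 15 and 6, encode mono-ADP-ribosyltransferases, of which Parp12 is known as an antiviral factor. Parp10 had 4, 10 and 12 reads in sepsis 1 to 3 and 9, 8, 3, 5 and 7 reads in control 1 to 5. Its ratio of library-corrected reads, sepsis over control, was 1.01 (95% counting interval 0.577 to 1.75). The 3′ end of Parp10 lies inside Plec on the same strand in GENCODE M21, and Plec, which encodes the linker protein plectin, had 2874 reads in sepsis and 6458 in control. The assignment of Parp10 reads is therefore uncertain. Parp12 had 8, 17 and 13 reads in sepsis 1 to 3 and 5, 6, 10, 7 and 7 reads in control 1 to 5, a ratio of 1.35 (0.829 to 2.20). Neither difference was detectable at this depth.

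**Figure D2:**
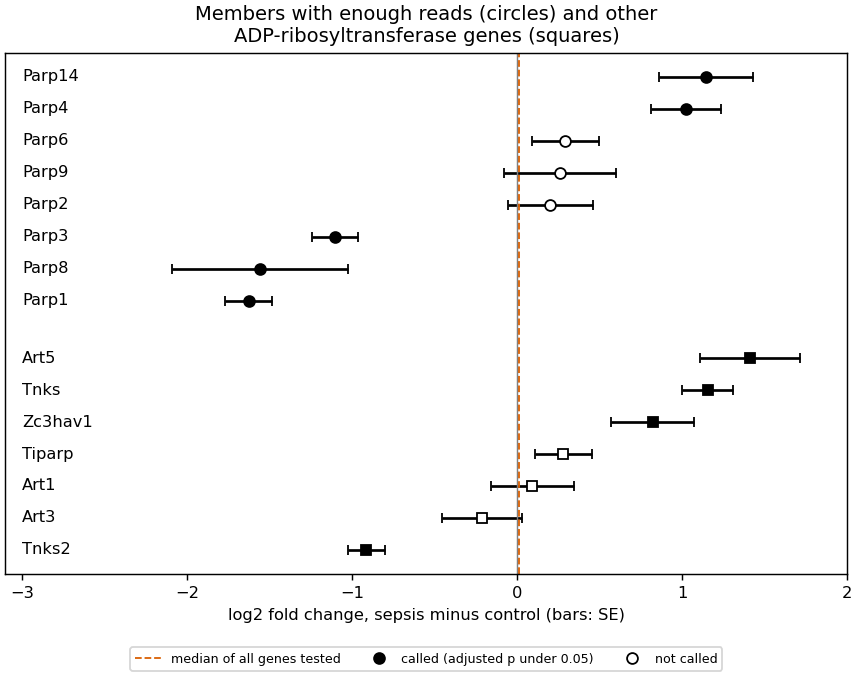
Log2 fold changes, sepsis minus control, with SE, of the 8 PARP genes with enough reads (circles) and of 7 other ADP-ribosyltransferase genes (squares); filled symbols passed edgeR's test and the dashed line is the median of all genes tested. Parp14 at 1.14 and Parp4 at 1.02 lie opposite Parp1 at -1.63, Parp8 at -1.56 and Parp3 at -1.11.

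The composition of PARP reads differed accordingly. Parp1 and Parp3 together made up 51.7%, 39.6% and 39.1% of the reads of the 10 genes in sepsis 1 to 3, against 69.3% to 74.9% in controls. The share of Parp14 was 5.94%, 12.1% and 14.5% in sepsis 1 to 3, against 3.17% to 3.85% in controls. The share of Parp4 was 13.4%, 15.3% and 19.2% in sepsis, against 4.55% to 6.59% in controls. These shares rest on 404 to 537 reads in septic libraries and 436 to 630 reads in controls, and they do not depend on how libraries are scaled. Sepsis 1 was the nearest to the controls in the shares of Parp1, Parp3, Parp4 and Parp14.

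**Figure D3:**
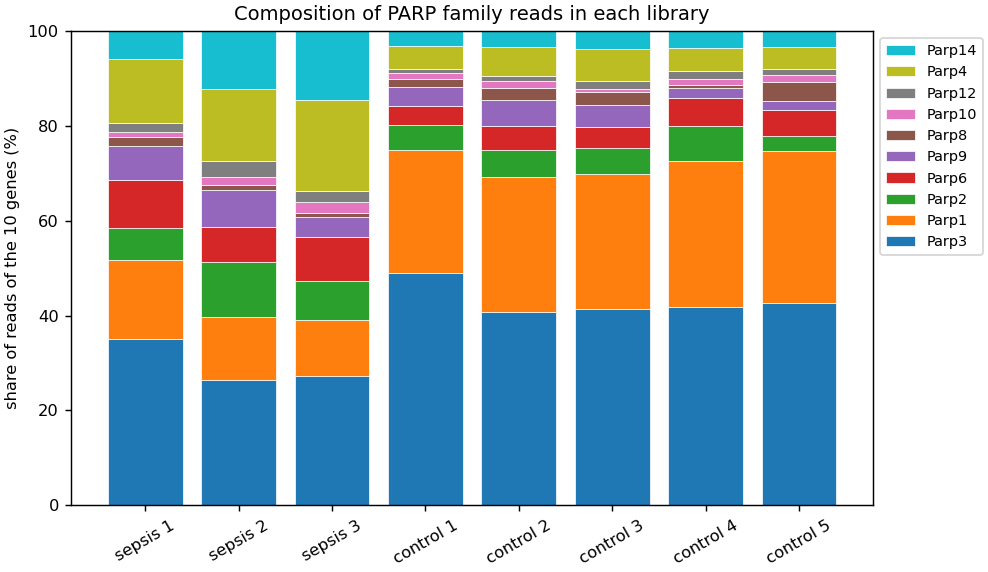
Share in percent of each PARP gene among the reads of the 10 genes, 1 bar per library, septic libraries left of controls. Parp3 and Parp1, at the base of each bar, take 39.1% to 51.7% in sepsis and 69.3% to 74.9% in control.

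The summed level of the 10 genes depended on scaling. It was 107, 112 and 123 CPM in sepsis 1 to 3 and 158 to 175 CPM in controls with TMM, with no overlap. As CPM of the unscaled library total it was 121, 145 and 143 in sepsis and 141 to 157 in control, where the groups overlapped. Without TMM scaling the median over all genes was 0.43 on the log2 scale, against 0.01 with it. Relative to that median, Parp1 was at -1.64, Parp3 at -1.13, Parp4 at 1.01 and Parp14 at 1.13, and all 4 were called.

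Genes that neighbour the members gave separate values. Rrp9, a nucleolar RNA-processing gene that starts head to head with Parp3 and overlaps its start, had 16.4 ± 2.44 CPM in sepsis and 10.1 ± 1.53 CPM in control. It rose, at 0.69 on the log2 scale (SE 0.19), at an edgeR adjusted p of 0.00854, opposite in sign to Parp3. Cenpj, a centriole gene that starts head to head with Parp4, had 3.09 ± 1.34 CPM in sepsis and 4.42 ± 1.12 CPM in control. Its log2 fold change was -0.50 (SE 0.35) and it did not pass the test.

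Other ADP-ribosyltransferase genes, known under other names, also went in different directions. Of 10 listed 7 were tested, 3 were higher and 1 was lower (2 lower without sepsis 1, with Art3 added at -0.64), beside 25.2% of all genes in each direction. The tankyrase genes Tnks and Tnks2, whose enzymes modify regulators of Wnt signalling and telomeres, moved oppositely. Tnks had 27.7, 30.7 and 34.0 CPM in sepsis 1 to 3 and 12.6 to 16.0 CPM in controls, a log2 fold change of 1.15 (SE 0.16) with an edgeR adjusted p of 4.46e-05. Tnks2 had 47.9, 49.8 and 48.6 CPM in sepsis 1 to 3 and 83.8 to 97.3 CPM in controls, a log2 fold change of -0.91 (SE 0.11) with an adjusted p of 2.17e-05. Neither gene overlapped between the groups.

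Zc3hav1, an antiviral RNA-binding protein of the PARP family that lacks catalytic activity, rose, at 0.82 on the log2 scale (SE 0.25), at 8.79 ± 0.930 CPM in sepsis and 4.90 ± 1.28 CPM in control. The Zc3hav1 call was lost with a replicate block in the fit, at 0.67. Art5, an arginine-specific transferase gene of another family, rose, at 1.41 on the log2 scale (SE 0.30), at 44.9, 34.0 and 16.9 CPM in sepsis 1 to 3 and 8.32 to 16.9 CPM in controls. Art1, the muscle surface transferase gene, had 298, 252 and 115 CPM in sepsis 1 to 3 and 189 to 235 CPM in controls, with a log2 fold change of 0.09 (SE 0.25). Sepsis 3 was below all controls and the other septic libraries were above them, and without sepsis 3 Art1 passed the test at 0.40. Tiparp and Art3 had log2 fold changes of 0.28 (SE 0.17) and -0.21 (SE 0.24) without passing.

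Among 10 genes that remove or break down ADP-ribose, all of them tested, 3 were higher and 3 lower, beside 25.2% of all genes in each direction. The list's median log2 fold change was -0.16, against 0.01 over all genes. Without TMM scaling, where all genes had a median of 0.43, 4 were higher and 2 lower and the list's median was 0.26. In that fit 4256 of all 9810 genes were higher and 1387 lower. Macrod1, which encodes a mitochondrial enzyme that removes single ADP-ribose units, had 33.5, 28.6 and 26.5 CPM in sepsis 1 to 3 and 88.5 to 101 CPM in controls, and fell, with a log2 fold change of -1.68 (SE 0.13), at an edgeR adjusted p of 3.39e-07. Its relative Macrod2 fell, at -1.15 on the log2 scale (SE 0.23). Adprs, whose enzyme removes ADP-ribose from serine, had 7.45, 9.03 and 19.2 CPM in sepsis 1 to 3 and 3.05 to 6.91 CPM in controls. It rose, at 1.21 on the log2 scale (SE 0.33), and the call was lost without sepsis 3, at 0.68. Nudt16, a Nudix hydrolase gene, rose, at 1.09 on the log2 scale (SE 0.26). Parg, the main enzyme that breaks down ADP-ribose chains, had 22.4 ± 1.44 CPM in sepsis and 22.6 ± 2.84 CPM in control, with a log2 fold change of -0.01 (SE 0.16).

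By the root mean square difference of centred log2 CPM over the 8 libraries, the genes most like Parp1 were Macrod1 at 0.0663, and the complex I subunit genes Ndufb10 at 0.0702 and Ndufb8 at 0.0858. The genes most like Parp4, the higher member with the smallest p, were the importin gene Kpnb1 at 0.123, the small GTPase gene Rab33b at 0.130 and Suco at 0.131. Predicted genes (names of Gm and digits, or ending in Rik) were left out of this ranking. These are descriptions over libraries that fall into separate groups, with no test.

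Among 22 DNA break repair genes that work with or beside Parp1, 18 were tested, 4 were higher and 6 were lower, beside 25.2% of all genes in each direction, and the list had a median log2 fold change of -0.20. Without TMM scaling 5 were higher and 4 lower, beside 4256 and 1387 of all 9810 genes, and the median was 0.23. Ogg1, called higher in both cases, had 3 to 8 reads in each control. It passed the expression filter only through septic libraries, so a difference was built into its being tested. The largest fall was that of Xrcc5, which with Xrcc6 encodes the Ku heterodimer that binds DNA double-strand ends. Xrcc5 had 3.72, 4.20 and 2.05 CPM in sepsis 1 to 3 and 19.3 to 29.7 CPM in controls, a log2 fold change of -2.81 (SE 0.25) with an edgeR adjusted p of 1.76e-06. Xrcc6 had 3.72, 2.94 and 2.28 CPM in sepsis 1 to 3 and 7.85 to 13.0 CPM in controls, and fell, at -1.70 on the log2 scale (SE 0.28). With 9 and 10 reads in sepsis 3, Xrcc5 and Xrcc6 would not have passed the filter on septic libraries alone. Aptx, a repair enzyme of blocked DNA ends, and Ung, the uracil glycosylase, fell, at -1.17 (SE 0.22) and -1.35 (SE 0.32) on the log2 scale. Xrcc1, the scaffold recruited by ADP-ribose chains, had a log2 fold change of -0.04 (SE 0.22), and Hpf1, which directs Parp1 to serine, had one of -0.51 (SE 0.23). Neither passed.

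**Figure D4:**
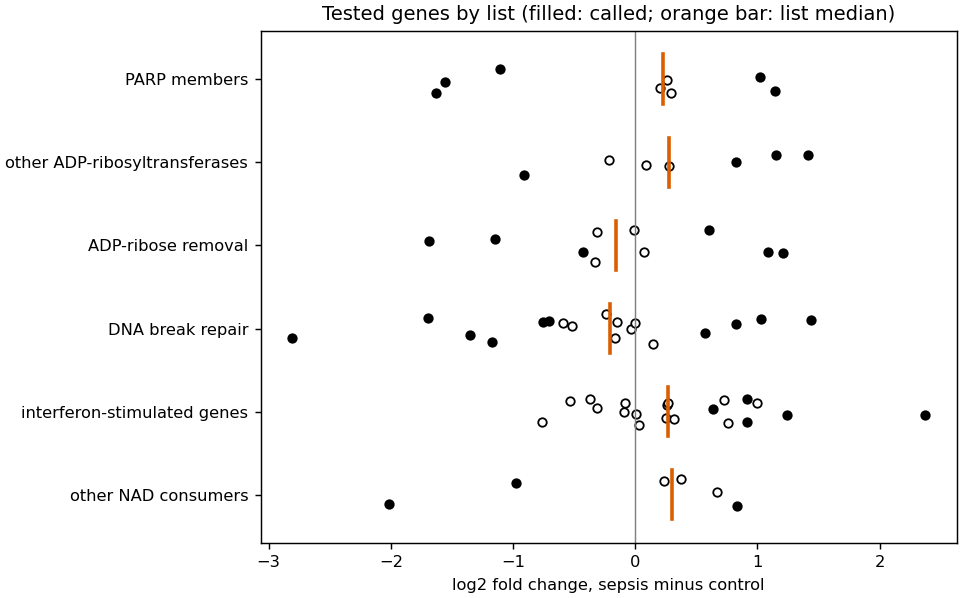
Log2 fold changes, sepsis minus control, of tested genes in the PARP set and 5 related lists, 1 point per gene (vertical scatter has no meaning); filled points passed edgeR's test and orange bars are list medians, from -0.20 for DNA break repair to 0.30 for other NAD consumers. Xrcc5 at -2.81 and Gbp2 at 2.37 are the outermost points.

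Of 32 interferon-stimulated genes listed 20 were tested, 5 were higher and 0 were lower, beside 25.2% of all genes higher. The list median was a log2 fold change of 0.26. The number higher was 9 of 24 tested without sepsis 1, 3 of 19 without control 2 and 3 of 21 without sepsis 3. Without sepsis 2, 2 were lower. Of the 9, Oasl2 and Gbp3 had 0 to 5 and 0 to 7 reads in each control. They passed the expression filter only through septic libraries, so that they were higher was built into their being tested. With library totals alone 8 of 20 were higher, beside 4256 of all 9810 genes. Summed CPM of the list were 122 in sepsis 1, 263 in sepsis 2 and 263 in sepsis 3, against 146 to 203 in controls, so sepsis 1 was below every control and the others above.

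Gbp2, a guanylate-binding protein gene, had 2.13, 18.9 and 20.3 CPM in sepsis 1 to 3 and 1.81 to 3.61 CPM in controls, and rose, at 2.37 on the log2 scale (SE 0.60). With 13, 6, 8, 5 and 11 reads in control 1 to 5, Gbp2 would not have passed the filter on controls alone. That it was higher was therefore in part built into its being tested. The immunoproteasome gene Psmb8 had 7.98, 15.3 and 18.9 CPM in sepsis 1 to 3 and 6.51 to 8.79 CPM in controls, and rose, at 0.92 on the log2 scale (SE 0.26). Rsad2, which encodes viperin, had 6.65, 18.3 and 12.6 CPM in sepsis 1 to 3 and 2.89 to 6.91 CPM in controls, and rose, at 1.24 on the log2 scale (SE 0.33). Irf1, an interferon-responsive transcription factor gene, had 9.57, 13.4 and 26.7 CPM in sepsis 1 to 3 and 6.59 to 10.8 CPM in controls, and rose, at 0.91 on the log2 scale (SE 0.30). In these 4 genes, which have the smallest p of the list, sepsis 1 lay within the control range and was the lowest septic library. The fifth gene called higher, the ubiquitin ligase gene Trim25, named after its values were seen, had 14.6, 16.8 and 12.8 CPM in sepsis 1 to 3 and 6.51 to 12.3 CPM in controls, so that sepsis 3 was the lowest and sepsis 1 was above every control. The calls of Psmb8 and Irf1 were lost without sepsis 3, at 0.66 and 0.39, and that of Irf1 also without control 2, at 0.82. Trim25 lost its call without control 2, 4 or 5 or sepsis 2, with group variances and with a replicate block.

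**Figure D5:**
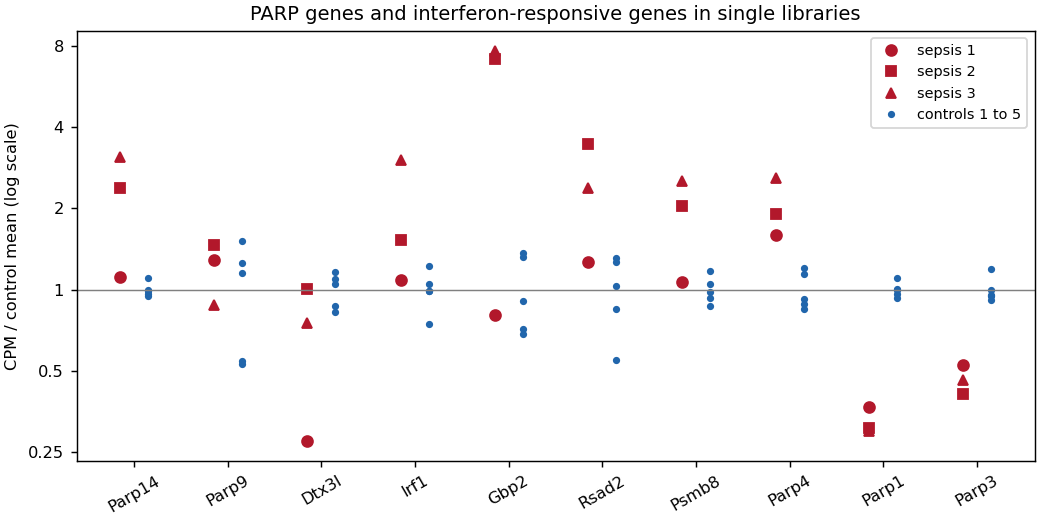
CPM of each library divided by the control mean, on a log axis, for 4 PARP members with calls, Parp9 and 5 interferon-related genes; red symbols are septic libraries (circle 1, square 2, triangle 3) and blue points are controls. Sepsis 1 is at 1.11 for Parp14 and 0.805 for Gbp2, where sepsis 3 is at 3.10 and 7.69.

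Markers of some other cell types also differed between the groups. Their counts stand beside 25.2% of all genes tested called higher and 25.2% lower. Summed neutrophil markers were at 69.7, 137 and 154 CPM in sepsis 1 to 3 and 0.903 to 4.14 CPM in controls, and 4 of 11 had enough reads. These 4 (S100a8, S100a9, Ngp and Retnlg) had 0 to 2 reads in each control and passed the expression filter only through septic libraries, so that they were higher was built into their being tested. Macrophage and monocyte markers were at 345, 583 and 344 CPM in sepsis 1 to 3 and 85.0 to 218 CPM in controls, with 7 of 10 tested higher. Of the 7, Cd68 and Itgam would not have passed the filter on controls alone, with 6 to 28 and 2 to 12 reads in each control. That these genes were higher was therefore in part built into their being tested. Of 10 lymphocyte markers none had enough reads, and Cd4, Cd79a and Trac were at 0 in every library. Endothelial markers were at 215 to 264 CPM in sepsis and 200 to 242 CPM in control, with 4 of 10 higher and 2 lower, near the share of all genes. Fibroblast markers were at 301 to 440 CPM in sepsis and 1377 to 2944 CPM in control, with 10 of 10 lower. Lum, Pi16, Col1a1 and Col3a1, with 2, 2, 7 and 4 reads in sepsis 1, would not have passed the filter on septic libraries alone. For these genes a difference was in part built into their being tested. Satellite cell markers were at 20.2, 47.1 and 60.5 CPM in sepsis 1 to 3 and 29.3 to 33.1 CPM in controls, with 1 of 3 tested higher and 1 lower. The higher one, Vcam1, had 6.38, 28.4 and 47.0 CPM in sepsis 1 to 3 and 1.59 to 3.89 CPM in controls. Vcam1 thus made up most of the sum in sepsis 2 and 3. With 14, 11, 10, 6 and 5 reads in control 1 to 5, Vcam1 would not have passed the filter on controls alone. The lower one, Chodl, had 3.19, 7.35 and 6.85 CPM in sepsis 1 to 3 and 14.8 to 20.3 CPM in controls. Pax7, with too few reads to test, was below every control, at 0.798 to 2.10 CPM in sepsis against 2.11 to 3.89 CPM. Myf5, Cdh15 and Calcr overlapped between the groups. The part of these cell types in the PARP values was not tested.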

How the data were processed

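QuantSeq 3′ mRNA libraries were made from 25 ng of column-purified total RNA, per the labels' protocols. The deposited table holds raw counts of reads per gene, 1 column per library, and the genome build was GRCm39, per the submitters' processing notes. The aligner, the counter, its strand setting and the annotation release are not given in the sources used here. Of 25655 rows, 9810 passed edgeR's expression filter (minimum count 10, minimum total 15). Counts were tested with edgeR 4.0.16 in R 4.3.3 by the quasi-likelihood F test with TMM scaling and robust dispersions, with no covariate, and Benjamini-Hochberg adjustment ran over all genes tested. The SE is the absolute log2 fold change divided by the square root of F. Log2 CPM used a prior count of 2. The procedure was tested on simulated data.

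The PARP genes and all lists were chosen with earlier results of these data known. All 10 PARP genes are named, with up to 4 genes of smallest p per list, all tested genes of the other transferases, and Dtx3l. Another gene that the rule names is not reported here. Parg, Xrcc1, Hpf1, Ogg1, Trim25, Oasl2, Gbp3, markers and head-to-head neighbours within 1000 bases were named after their values were seen. Alternatives used other scaling, filters and dispersions, DESeq2 1.42.0, a replicate block, each library left out, and, chosen after seeing the data, limma 3.58.1 voom with group variances. GENCODE M21 and RefSeq tables are on GRCm38, another build, and gave chromosomes, neighbours and promoters only.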

Additional observations from a re-analysis of the deposited data

How the results depend on the processing

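Parp1, Parp3, Parp4 and Parp14 kept their direction and their call under every alternative in which they were tested, with log2 fold changes of -1.72 to -1.21, -1.20 to -0.69, 0.81 to 1.44 and 0.82 to 1.57. With a minimum count of 30, Parp14 was not tested and 1 PARP gene, Parp4, was higher. With library totals alone Parp6 passed, at 0.70, which was 0.27 above the median of all genes, against 0.28 above it in the main fit. Parp8 lost its call with library totals alone, at -1.15, and with group variances, at -1.42. With single libraries left out, 2 PARP genes were higher and 2 to 3 lower, and 4428 to 5039 genes were called, against 4943. No sign was found that the replicate numbers pair the samples. Deviations of same-numbered libraries correlated at -0.12, 0.04 and -0.02, and those of other pairs at -0.092 to 0.129. So few libraries cannot exclude a pairing. With a replicate block 2 PARP genes were higher, 3 lower and 3625 genes called, and 0 interferon-stimulated genes were higher. Medians changed sign with library totals alone for ADP-ribose removal, at 0.26, and DNA break repair, at 0.23, and with no filter for the other transferases, at -0.0253. With library totals alone the median of all genes was 0.43, and both lists stayed below it, as they did with TMM scaling. With a minimum count of 30 the interferon median was -0.00538. The cause of these changes was not tested, beyond the smaller number of genes at the minimum of 30. Depth limits Parp8, Parp10 and Parp12, with 17 to 38 septic reads each.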

Other observations

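Parp14, Dtx3l and Parp9 are neighbours on chromosome 16 in GENCODE M21, and the protein-coding genes beside them gave different values. Hspbap1 and Slc49a4, next to Parp14, had log2 fold changes of 0.73 (SE 0.54) and 0.17 (SE 0.15), sepsis minus control, without passing edgeR's test. Kpna1, an importin gene next to Parp9, had 145 ± 25.4 CPM in sepsis and 122 ± 6.47 CPM in control (SD, n = 3 and 5), with a log2 fold change of 0.24 (SE 0.12). Fam162a, the mitochondrial gene farthest along on that side, fell with a log2 fold change of -1.26 (SE 0.15) at 23.2 ± 4.03 CPM in sepsis and 55.9 ± 5.64 CPM in control. Sema5b and Wdr5b had too few reads. Parp14 was the only gene of these called higher.

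Of 10 other NAD-consuming genes, the sirtuins, Cd38, Bst1 and Sarm1, 6 were tested, 1 was higher and 2 were lower, near the 25.2% of all genes called in each direction. Sirt3, a mitochondrial deacylase gene, had 2.13, 1.68 and 0 CPM in sepsis 1 to 3, against 3.50 to 6.11 CPM in controls, with a log2 fold change of -2.02 (SE 0.55) that was called lower and was -1.43 without sepsis 3. It had 8, 8 and 0 reads in sepsis and passed the expression filter only through controls, so a difference was built into its being tested. Sirt7, a nuclear deacylase gene, had 5.85, 7.14 and 6.39 CPM in sepsis 1 to 3, against 2.78 to 4.08 CPM in controls, and rose with a log2 fold change of 0.83 (SE 0.25). Sirt5 had a log2 fold change of -0.98 (SE 0.33), a call that held in 9 of 16 alternatives. It was lost without control 3 or 5 or sepsis 1 or 2, with library totals alone (-0.56), with the replicate block (-0.96) and with group variances (-0.91). Sirt1 had one of 0.67 (SE 0.29) and passed when control 2 (0.82) or sepsis 2 (0.92) was left out, and with library totals alone (1.08). With single libraries left out, 1 to 2 of these genes were higher and 1 to 2 lower. In 36 sets of 5 control values, from the PARP genes, the genes named by rule from the related lists and the family sum, no control stood apart by Dixon's test. Cell type markers were not among these sets, and in some of them control 1 was far above the other controls. It had 16.7 CPM of Lum and 457 CPM of Col3a1, against 4.14 to 6.59 and 91.2 to 136 CPM.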
